A study of Rattus norvegicus with 10 samples.

Results

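The genes described here encode the nuclear subunits of oxidative phosphorylation complexes I to V, with the assembly factors and regulators that carry the same symbol stems. A probe set counted as a member when it carried exactly 1 gene symbol and that symbol began with Nduf, Uqcr, Atp5 or Cox4 to Cox8 followed by a letter, or was Sdha, Sdhb, Sdhc or Sdhd. This gave 96 probe sets for 86 of the 14217 genes named on the array, and each gene was represented by its probe set with the highest mean signal. Of the 86 genes, 79 passed the filter on dim probe sets, against 10328 genes of the whole series. Complex I supplied 40 of the 79 (6 catalytic core subunits, 28 accessory subunits and 6 assembly factors), complex II 4, complex III 7, complex IV 10 and complex V 16. The remaining members past the filter were Ndufa4, which was first assigned to complex I and is now known as a partner of complex IV, and the pseudogene Cox6c-ps1.

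Livers came from Wistar/ST rats, all of them on a high-fat diet. The 5 mulberry rats received dried mulberry leaf powder in carboxymethylcellulose through a gastric probe. The labels give the dose as 500 mg per kg and day for these rats and 0 mg for the 5 control rats, and their wording on how often it was given is unclear. Livers were taken after 7 weeks, and total RNA of each rat was hybridised to 1 Affymetrix rat expression array, so each value below belongs to 1 animal. Age and sex are not stated in the labels. The comparison asks how liver gene expression differs with mulberry leaf on a high-fat diet, and no group on a normal diet was analysed here.

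Oxidative phosphorylation is the last stage of fuel oxidation in mitochondria. Complexes I and II take electrons from NADH and succinate and pass them to ubiquinone, complex III hands them to cytochrome c, and complex IV reduces oxygen. Complexes I, III and IV pump protons across the inner membrane while electrons pass, and complex V lets the protons back to make ATP. In liver this supports the oxidation of fatty acids. A few subunits are encoded in mitochondrial DNA, and the symbol rule does not include them.

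The arrays were alike in scale, with median intensities between 97.5 and 118 and correlations between arrays from 0.957 to 0.975. All 7 measured hepatocyte markers passed the filter, and their summed intensity was 188229 to 241149 in mulberry livers and 190570 to 236851 in control livers. Of the 5 skeletal and heart muscle markers, 1 passed the filter, and their sum was 121 to 312 in mulberry livers and 169 to 305 in control livers. That marker, Actn2, averaged 76.9 ± 23.8 in mulberry livers and 120 ± 16.7 in control livers (SD, n = 5 each), with overlapping groups. Its log2 difference was -0.57 ± 0.19 (SE, unadjusted p = 0.010, adjusted p = 0.9999 in limma). The muscle markers under the filter did not share this direction. Myh7 averaged 22.2 in mulberry and 12.5 in control livers, Ckm 58.7 and 48.9, Acta1 13.9 and 7.61, and Tnnt3 48.8 and 49.7. All 5 measured Kupffer cell and macrophage markers passed the filter. Among them Cd68 had a difference of 0.39 ± 0.18 (SE, unadjusted p = 0.045, adjusted p = 0.9999 in limma). The others did not share a difference of that size: Clec4f had 0.15, Cd163 0.14, Adgre1 0.068 and Csf1r -0.018. Their unadjusted p in limma ran from 0.46 to 0.93. In whole-liver RNA, fewer cells of a type and less RNA per cell cannot be told apart.

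The livers of control rats 3 and 4 stood apart from the others in these genes, and this spread is given before the group comparison. The level of the 79 genes in a rat was taken as the mean, over genes, of each gene's log2(intensity + 16) minus that gene's mean over the 10 rats. It was 0.046, -0.00064, -0.12, 0.050 and -0.072 in mulberry rats 1 to 5, and -0.095, -0.13, 0.23, 0.18 and -0.078 in control rats 1 to 5. The 2 highest livers were thus both control livers, and the lowest was also a control liver. Of the 79 genes, 73 were above their own mean in both control rats 3 and 4 (92.4%, against 26.7% of all probe sets tested). In both of these rats 5 genes were below their mean. For 42 genes these were the 2 highest of the 10 rats, which is 53.2% of the members, against 4.99% of all probe sets tested. Among the 1323 probe sets brighter than the lower quartile of the members (a mean intensity of about 3865) it was 15.7%. Control rats 3 and 4 were singled out because these same genes were high in them. Shares above those of other probe sets therefore follow from that choice, and the genes are not independent counts.

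Of the complex I accessory subunits, 27 of 28 were above their mean in both rats, and for 19 these rats were the 2 highest. All 10 stalk and membrane subunits of complex V, all 5 F1 subunits and all 7 complex III genes were above their mean in both. By the stricter count, with these rats as the 2 highest, the numbers were 7 of 10, 2 of 5 and 3 of 7. The class level of the accessory subunits was 0.29 in control rat 3 and 0.23 in control rat 4. That of complex IV was 0.13 and 0.10 in the same rats, and 0.19 and 0.17 for its 9 genes other than Cox5a.

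**Figure D1:**
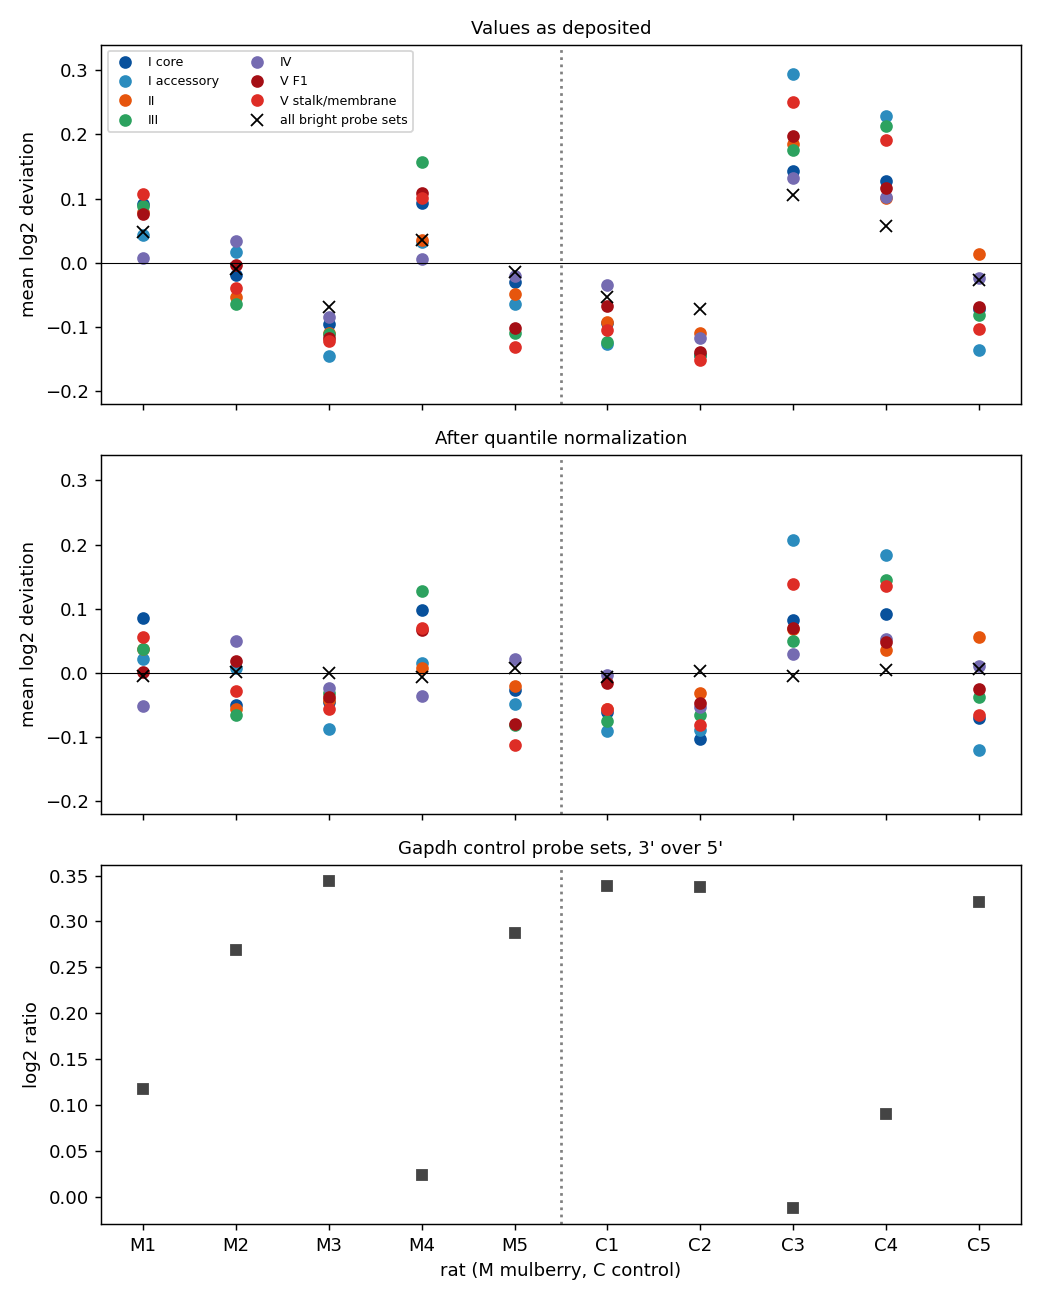
Top and middle: mean log2 deviation of each class of oxidative phosphorylation genes in each rat, as deposited and after quantile normalization, with crosses for the 1323 bright probe sets. Bottom: Gapdh 3′ over 5′ control probe set (log2 ratio). Control rats 3 and 4 have the highest points as deposited, and with mulberry rats 1 and 4 the lowest Gapdh ratios.

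Other values moved with the same rats. The bright probe sets as a whole had levels of 0.11 in control rat 3 and 0.057 in control rat 4, so bright probe sets in general were higher there too. Quantile normalization gives all arrays the same distribution, which by itself holds the bright probe sets as a whole near 0. Under it the 79 genes had a level of 0.14 in control rat 3 and 0.14 in control rat 4, and the complex I accessory subunits 0.21 and 0.18. The Gapdh ratio (3′ over 5′ control probe set, log2), a common measure of RNA and cRNA integrity, was 0.12, 0.27, 0.34, 0.024 and 0.29 in mulberry rats 1 to 5. In control rats 1 to 5 it was 0.34, 0.34, -0.012, 0.090 and 0.32. The 4 rats with the lowest ratio were the 4 rats with the highest level of these genes, namely mulberry rats 1 and 4 and control rats 3 and 4. For the same ratio of beta-actin this held for 3 of the 4 rats.

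Summed marker intensities of 2 cell types were highest in these 4 rats, while those of the other cell types did not have this order. The sum of the 7 hepatocyte markers was 229399, 188229, 189642, 241149 and 196113 in mulberry rats 1 to 5, and 191433, 190570, 236851, 197798 and 191621 in control rats 1 to 5. In control rat 4 Apoa1, Serpina1 and Cps1 were among the 4 highest livers, and Alb, Ttr, Ahsg and Ass1 were not. Alb was 28179 there, against 29272 in mulberry rat 5. The sum of the 3 red blood cell markers was 25249, 24993, 24602, 27439 and 23221 in mulberry rats 1 to 5, and 18754, 17238, 29236, 30016 and 21237 in control rats 1 to 5. That sum is nearly all Hbb, which is itself a bright probe set. The other 2 red cell markers did not follow it in the mulberry rats: Slc4a1 was lowest in mulberry rat 1 (24.3), and Alas2 was 599 in mulberry rat 1 and 696 in mulberry rat 4, against 934 in mulberry rat 2. None of the 3 was at 0. The part of RNA integrity, array brightness or cell content in the levels of these genes was not tested.

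**Figure D2:**
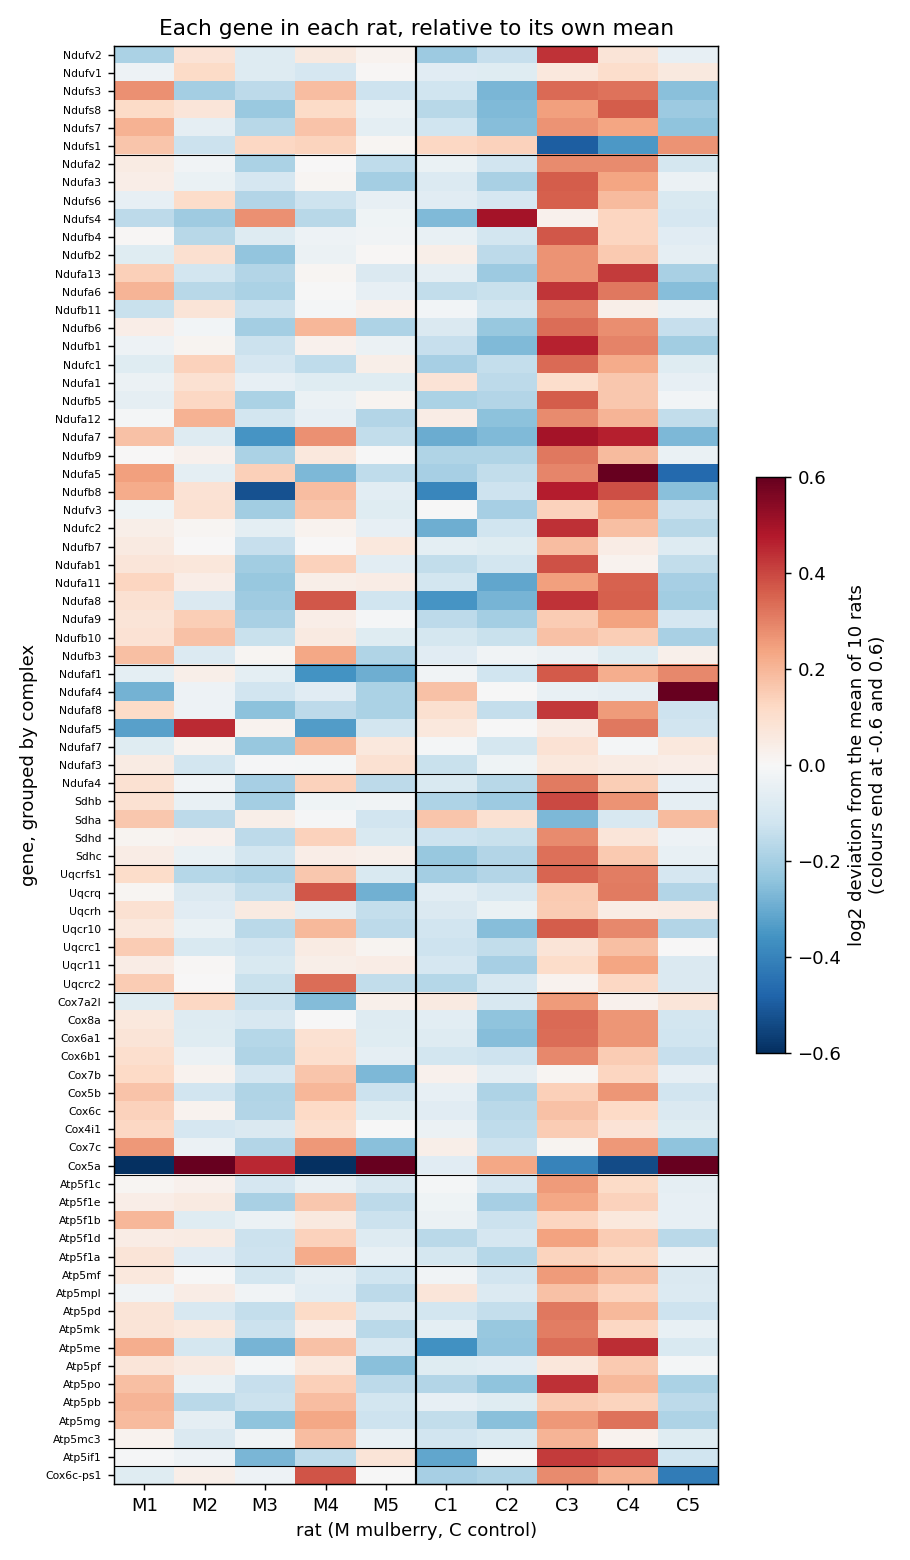
Each of the 79 genes (rows, by complex) in each rat (columns, mulberry then control), coloured by log2(intensity + 16) minus the gene's mean over 10 rats. Red columns in control rats 3 and 4 cross all complexes, and Ndufs1, Sdha and Cox5a are blue there.

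Pairs of these genes were correlated over the rats, less so without control rats 3 and 4 and less so after normalization. The median correlation between pairs of the 79 genes was 0.67 over 10 rats, and 0.17 between pairs of the 1323 bright probe sets. Without control rats 3 and 4 it was 0.44 for the 79 genes and 0.15 for the bright probe sets over 8 rats. After quantile normalization it was 0.43 for the 79 genes over 10 rats, and 0.19 over the 8 rats. For the bright probe sets, whose level that normalization holds near 0, it was then 0.0031 over 10 rats and 0.0064 over the 8 rats. These are descriptions, since all pairs share the same arrays, brightness and RNA. The gene that followed the mean of the other members most closely was Cox6a1, the liver form of a complex IV subunit, with a correlation of 0.98.

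Ndufs1, the largest subunit of the NADH-oxidising arm of complex I, ran the other way. It had intensities of 3442, 2803, 3341, 3363 and 3092 in mulberry rats 1 to 5, and 3339, 3371, 2173, 2414 and 3696 in control rats 1 to 5. The 2 lowest of the 10 livers were those of control rats 3 and 4, while control rat 5 was the highest. Its correlation with the mean of the other members was -0.82. Sdha, the flavoprotein of complex II that oxidises succinate, had 7947, 6368, 7290, 7078 and 6567 in mulberry rats 1 to 5, and 7986, 7562, 5886, 6650 and 8097 in control rats 1 to 5. Control rat 3 was the lowest liver for Sdha, and control rat 5 again the highest. Its correlation with the other members was -0.64.

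Cox5a, a subunit of complex IV, was measured by 1 probe set that carried its symbol alone, and a further probe set shared with a second symbol was not counted. Its intensity was 217, 650, 579, 248 and 680 in mulberry rats 1 to 5, and 398, 494, 313, 284 and 655 in control rats 1 to 5. The 4 lowest livers were mulberry rats 1 and 4 and control rats 3 and 4, the same 4 rats in which most members were high. The other genes below their mean in both control rats 3 and 4 were Ndufaf4, a complex I assembly factor, and Ndufb3, an accessory subunit of the membrane arm.

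Promoter sequences are shown because most of the genes were high in the same rats, and because Ndufs1 and Sdha did not follow the rest. RefSeq promoters of the assembly GRCr8, from 250 bases before to 50 bases after the annotated start, were matched for 78 of the 86 genes. They were searched on both strands for exact matches to 4 short motifs of factors known from mammalian respiratory chain genes, none of which contains another. These were TGCGCATGC for NRF1, CCGGAAGT for GABP and other ETS factors, AAGATGGCG for YY1 and AAGGTCA for the oestrogen-related receptors. The window of Ndufa6 is chr7:115750268-115750567 (minus strand), that of Uqcrc1 chr8:118467973-118468272 (plus strand), of Cox8a chr1:213833574-213833873 (minus strand), of Atp5mg chr8:54130358-54130657 (minus strand), of Ndufs1 chr9:72073556-72073855 (minus strand) and of Sdha chr1:30764303-30764602 (plus strand). The first 4 were chosen, after the matches were seen, as genes of complexes I, III, IV and V with matches to 2 kinds of motif. Their contrast with Ndufs1 and Sdha in matches therefore follows from the choice. Each window is printed from 5′ to 3′ on the strand of its gene, with matches in capitals.
Ndufa6: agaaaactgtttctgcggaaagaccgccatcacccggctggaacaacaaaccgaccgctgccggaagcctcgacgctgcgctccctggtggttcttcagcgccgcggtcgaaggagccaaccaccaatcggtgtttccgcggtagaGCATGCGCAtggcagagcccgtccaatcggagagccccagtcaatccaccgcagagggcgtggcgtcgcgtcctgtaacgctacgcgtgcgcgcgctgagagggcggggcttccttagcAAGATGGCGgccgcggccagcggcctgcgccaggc
Uqcrc1: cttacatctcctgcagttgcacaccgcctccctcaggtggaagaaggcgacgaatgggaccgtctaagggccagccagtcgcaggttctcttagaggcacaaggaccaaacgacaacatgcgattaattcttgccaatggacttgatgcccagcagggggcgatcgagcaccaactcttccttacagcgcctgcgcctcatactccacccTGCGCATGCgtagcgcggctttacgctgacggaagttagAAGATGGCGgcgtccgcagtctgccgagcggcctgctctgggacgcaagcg
Cox8a: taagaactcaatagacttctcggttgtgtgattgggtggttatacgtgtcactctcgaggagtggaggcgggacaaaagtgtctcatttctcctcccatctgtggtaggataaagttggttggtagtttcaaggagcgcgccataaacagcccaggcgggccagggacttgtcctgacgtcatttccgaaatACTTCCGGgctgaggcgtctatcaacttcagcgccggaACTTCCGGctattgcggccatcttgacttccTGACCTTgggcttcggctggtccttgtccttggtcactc
Atp5mg: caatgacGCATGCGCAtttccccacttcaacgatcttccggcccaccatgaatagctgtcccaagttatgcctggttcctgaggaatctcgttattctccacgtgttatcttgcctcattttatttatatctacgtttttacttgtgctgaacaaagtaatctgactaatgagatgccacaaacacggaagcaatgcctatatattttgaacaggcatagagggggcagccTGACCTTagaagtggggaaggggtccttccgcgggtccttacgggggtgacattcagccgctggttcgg
Ndufs1: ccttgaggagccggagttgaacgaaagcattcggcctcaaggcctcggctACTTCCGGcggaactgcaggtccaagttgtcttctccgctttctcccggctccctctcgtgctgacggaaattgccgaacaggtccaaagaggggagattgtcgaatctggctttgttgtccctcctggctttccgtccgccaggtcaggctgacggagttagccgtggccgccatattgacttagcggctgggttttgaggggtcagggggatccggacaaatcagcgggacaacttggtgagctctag
Sdha: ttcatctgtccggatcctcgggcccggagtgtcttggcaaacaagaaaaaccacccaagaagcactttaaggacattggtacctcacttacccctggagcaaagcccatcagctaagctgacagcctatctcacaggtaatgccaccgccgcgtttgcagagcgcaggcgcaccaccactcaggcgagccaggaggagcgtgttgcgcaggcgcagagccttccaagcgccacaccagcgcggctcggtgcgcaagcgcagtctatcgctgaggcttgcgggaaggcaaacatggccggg

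Ndufa6 and Uqcrc1 each held an NRF1 and a YY1 match, Cox8a 2 ETS matches and 1 match for the oestrogen-related receptors, and Atp5mg an NRF1 match and 1 for those receptors. Ndufs1 held 1 ETS match and Sdha none of the 4 motifs. Over the 78 promoters, the NRF1 motif occurred in 5 (6.41%), against 1.47% of 27457 rat promoters of the same length and 2.65% of the 8641 promoters of genes tested here. The YY1 motif occurred in 11 (14.1%), against 1.93% of all promoters and 3.96% of those of tested genes. The motif of the oestrogen-related receptors occurred in 11 (14.1%), against 4.37% of all promoters and 2.90% of those of tested genes. The ETS motif occurred in 8 (10.3%), against 4.01% of all promoters and 8.58% of those of tested genes. An Sp1 motif, GGGCGGGG, occurred in 7 (8.97%), against 16.3% of all promoters and 31.0% of those of tested genes. Median GC content was 56% in the members' promoters, against 52.3% in all promoters and 60.7% in those of tested genes.

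At least 1 of the first 4 motifs was found in 28 members' promoters, or 35.9%, against 17.0% of the promoters of tested genes. Of these 28 genes, 27 were above their mean in both control rats 3 and 4, as were 39 of the 44 tested genes whose promoter held none. A match describes letters in this window and not binding.

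None of the 79 genes differed between mulberry and control livers at an adjusted p under 0.05 in limma, where 0% of the 18625 probe sets tested did so. At an unadjusted p under 0.05 the count was 0 of the 79, where 1.74% of all probe sets passed. The groups were fully apart, with no overlap of values, for 0 of the 79, where this held for 0.344% of all probe sets. Each difference below is the mulberry mean minus the control mean of log2(intensity + 16). The differences were negative for 56 genes and positive for 23, with a median of -0.036, while 5299 of all 10328 genes tested were positive with a median of 0.0035. The sign of the median of the 79 genes rests on control rats 3 and 4. Without both, 69 genes were positive and 10 negative and the median was 0.10. Both are control rats picked because most of these genes were high in them, so leaving them out raises most differences by construction. Without control rat 3 alone 54 were positive with a median of 0.020, without control rat 4 alone 43 with a median of 0.0038, and with array weights 49 with a median of 0.015.

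The differences were bounded closely. The 95% interval lay within 1.5-fold in both directions for 77 of the 79 genes (97.5%), against 76.7% of all genes tested. The exceptions were Cox5a and the assembly factor Ndufaf1. The median standard error (SE) was 0.11, against 0.152 for all genes tested. Of the 79 genes, 59 were among the 1323 bright probe sets, and no share or SE for genes of like brightness was computed. The spread was unequal between the groups, with a median SD over the 79 genes of 0.129 on the log2 scale among mulberry rats and 0.206 among control rats. The SD was larger among control rats for 64 of the 79 genes, while it was larger there for 51.5% of all probe sets.

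**Figure D3:**
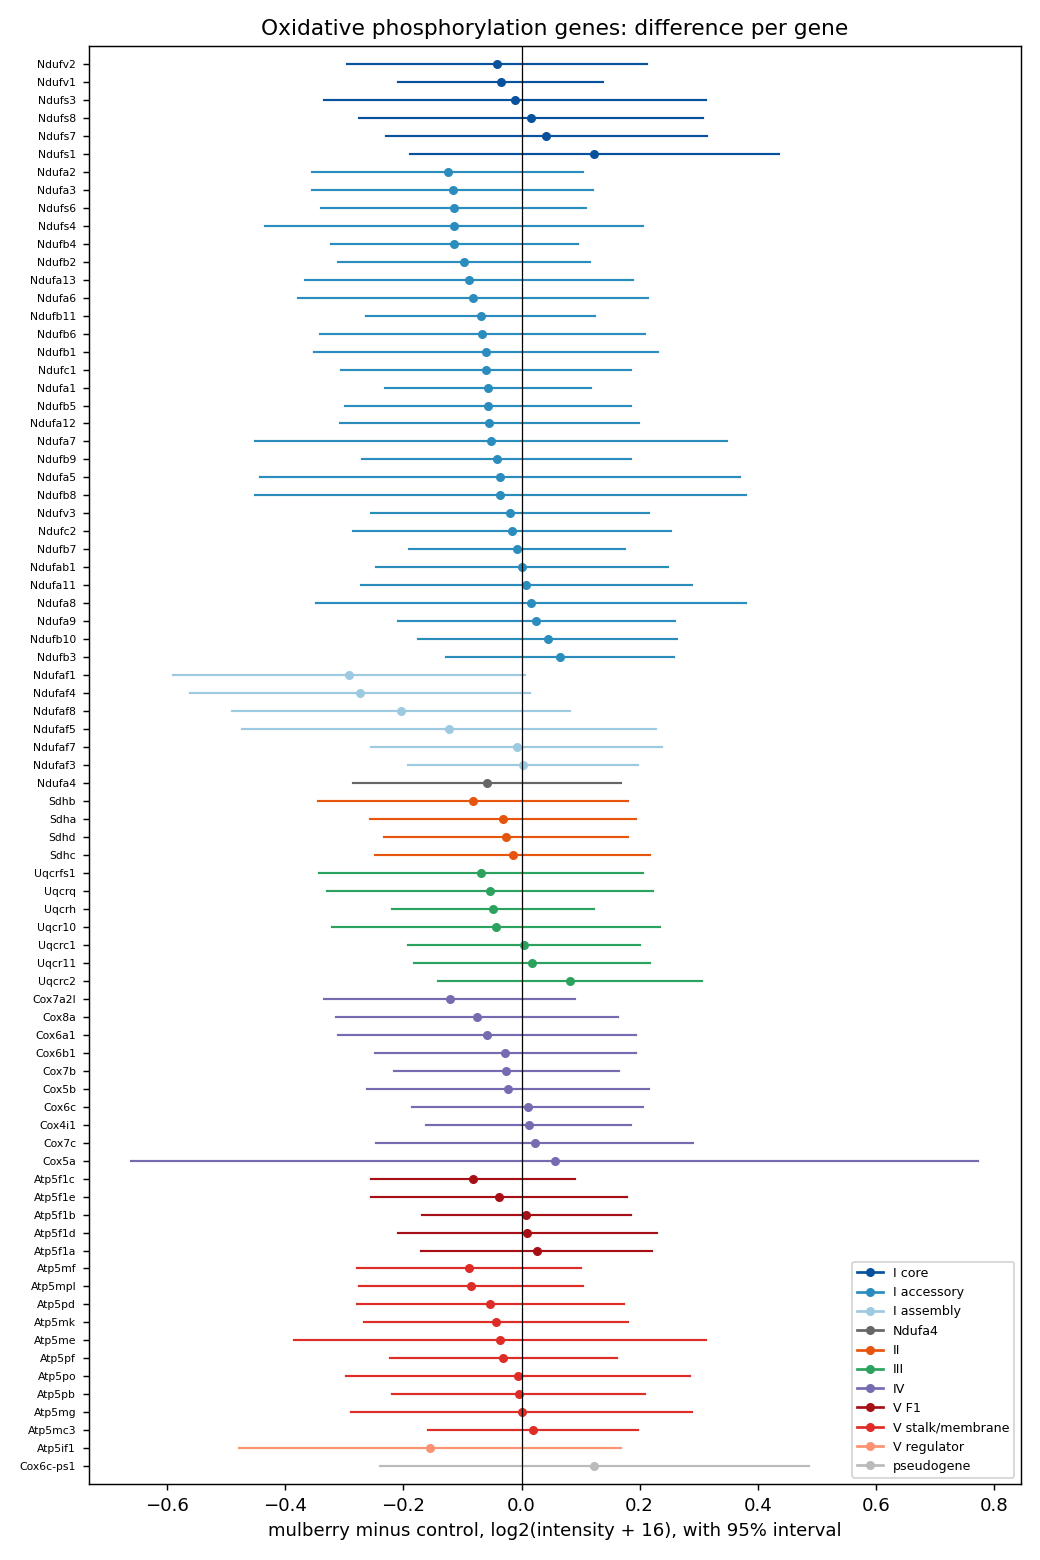
Mulberry minus control difference of each of the 79 genes on the log2(intensity + 16) scale, with its 95% interval from limma, ordered by complex (n = 5 rats per group). All 79 intervals cross 0, and all but those of Cox5a and Ndufaf1 lie within 1.5-fold.

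Complex I contains the largest group of members. Of its 6 catalytic core genes 3 had positive and 3 negative differences, with a median of 0.0027. Ndufs1 had the largest positive difference of the core, 0.12 ± 0.14 (SE), with means of 3208 ± 262 in mulberry livers and 2999 ± 664 in control livers (SD, n = 5 each). It was negative, -0.11, without control rats 3 and 4. Ndufv1, which binds NADH and the flavin, had 3861, 4261, 3729, 3676 and 3955 in mulberry rats 1 to 5, and 3758, 3751, 4114, 4242 and 4101 in control rats 1 to 5. The groups overlapped, and the difference was -0.035 ± 0.081 (SE).

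Of the 28 accessory subunits, 22 had negative differences, and the median was -0.055. Ndufa2, a subunit of the matrix arm, had 4549, 4334, 3857, 4416 and 3961 in mulberry rats 1 to 5, and 4287, 4061, 5369, 5371 and 4095 in control rats 1 to 5. The other 3 control rats lay among the mulberry rats, below control rats 3 and 4. The difference was -0.13 ± 0.11 (SE, unadjusted p = 0.26 in limma). Ndufs6, a zinc-binding subunit, averaged 7144 ± 552 in mulberry livers and 7786 ± 1155 in control livers, and Ndufb4, a subunit of the membrane arm, 9024 ± 418 in mulberry livers and 9834 ± 1433 in control livers (SD, n = 5 each). Both had differences near that of Ndufa2, at -0.12 and -0.11. Without control rats 3 and 4 the median of the accessory subunits was 0.11.

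The 6 assembly factors of complex I that the symbol rule includes had a class median of -0.16, with 5 of 6 below 0. A further 10 complex I assembly factors with other symbols had a median of 0.018, with 7 above 0. Ndufaf1, which helps to build the membrane arm, had intensities of 243, 261, 243, 195 and 204 in mulberry rats 1 to 5, and 250, 232, 332, 298 and 314 in control rats 1 to 5. Control rats 3, 4 and 5 were above every mulberry rat, and control rats 1 and 2 were within the mulberry range. The difference of -0.29 ± 0.14 (SE) was the most negative of the 79 genes, with an unadjusted p of 0.053 and an adjusted p of 0.9999 in limma. Ndufaf4, which acts with Ndufaf3 early in assembly, had 952, 1139, 1074, 1109 and 1018 in mulberry rats 1 to 5, and 1314, 1162, 1127, 1119 and 1785 in control rats 1 to 5. Control rat 5 was the highest by a wide margin, and control rats 3 and 4 lay just below the highest mulberry rat. The difference was -0.27 ± 0.13 (SE, unadjusted p = 0.060 in limma).

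Ndufaf8 had a difference of -0.20 ± 0.13, Ndufaf5 -0.12 ± 0.16, Ndufaf7 -0.0081 ± 0.11 and Ndufaf3 0.0032 ± 0.090 (SE). Control rats 3 and 4 were the 2 highest livers for 1 of the 6 assembly factors. Their level was -0.097, 0.056, -0.11, -0.12 and -0.10 in mulberry rats 1 to 5, and 0.029, -0.067, 0.16, 0.13 and 0.13 in control rats 1 to 5. Control rat 5, which was low for the accessory subunits (-0.14), was among the high livers here. Its level rested on Ndufaf4 and Ndufaf1, which lay 0.61 and 0.29 above their own log2 means. The other assembly factors lay between -0.12 and 0.062 in that rat. Without control rats 3 and 4 the median difference of the 6 assembly factors was -0.045. Ndufa4 had 13391, 12392, 10921, 13811 and 11270 in mulberry rats 1 to 5, and 11785, 11176, 15591, 13895 and 12129 in control rats 1 to 5, with overlapping groups and a difference of -0.059 ± 0.11 (SE). Its homologue Ndufa4l2 was under the filter, at 10.6 to 64.6 in mulberry livers and 28.3 to 77.3 in control livers.

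**Figure D4:**
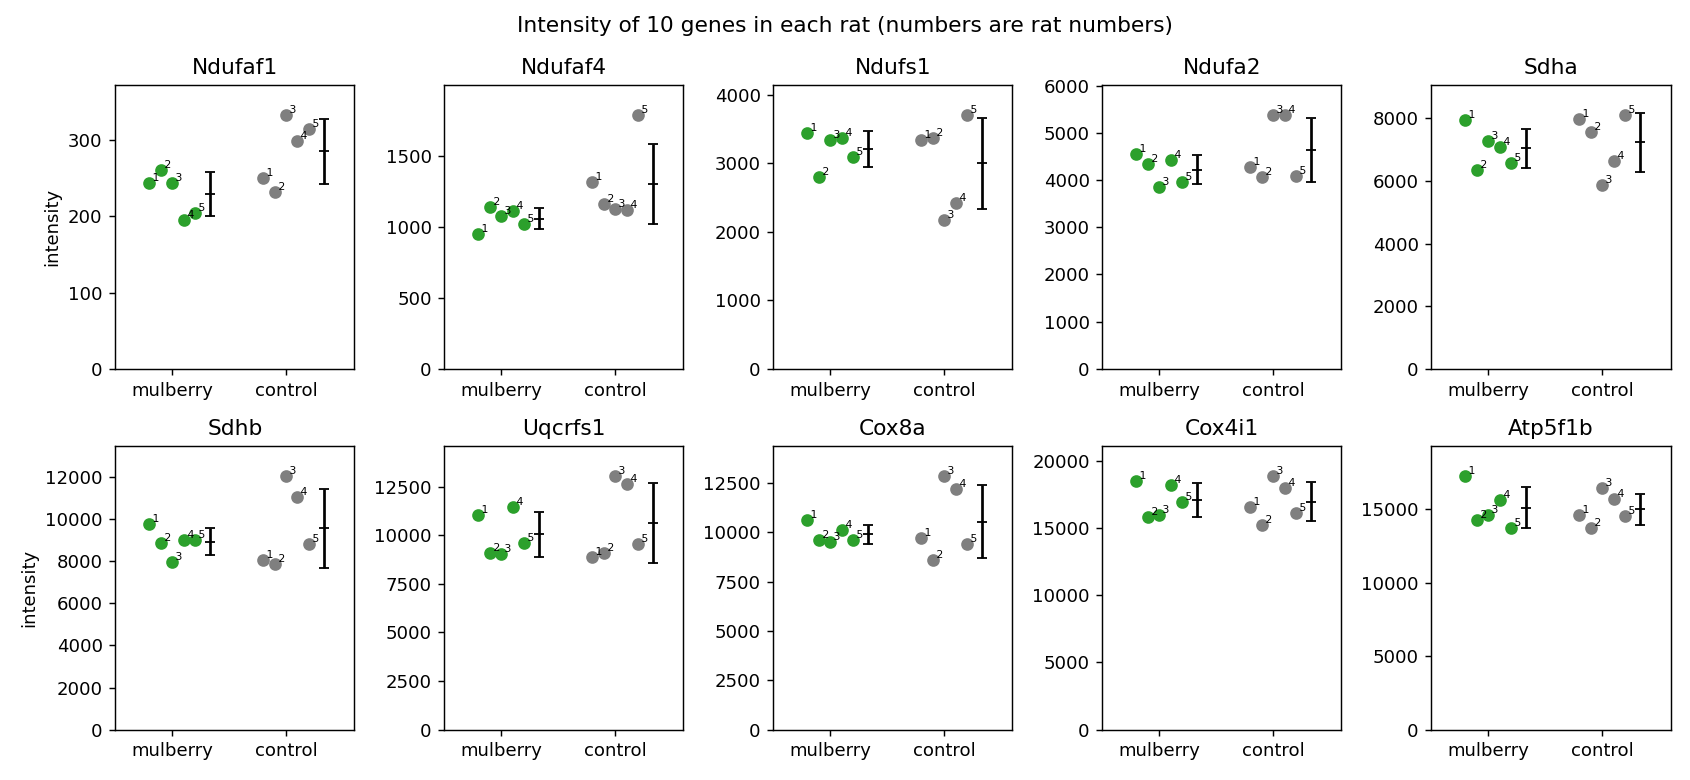
Intensity of 10 genes in each rat (points with rat numbers), mulberry left of control, with mean and SD (n = 5 each). Control rats 3 and 4 are the 2 highest points for Ndufa2, Sdhb, Uqcrfs1 and Cox8a, and the 2 lowest for Ndufs1.

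Complex II oxidises succinate and is also part of the citric acid cycle, and its 4 genes all had small negative differences. Sdhb, the iron-sulphur subunit, had 9739, 8869, 7935, 8984 and 9008 in mulberry rats 1 to 5, and 8031, 7865, 12029, 11024 and 8804 in control rats 1 to 5. Here control rats 3 and 4 were above all mulberry rats, while control rat 2 was the lowest liver. The difference was -0.082 ± 0.12 (SE), and 0.11 without those 2 rats. The membrane anchors Sdhc and Sdhd had differences of -0.015 ± 0.11 and -0.027 ± 0.096, and Sdha one of -0.032 ± 0.10 (SE). Sdha and Sdhb encode proteins that bind each other, and control rats 3 and 4 were at the top for Sdhb while control rat 3 was at the bottom for Sdha.

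Complex III carries electrons from ubiquinone to cytochrome c, and 3 of its 7 genes had positive differences. Uqcrc2, a core subunit, had 9946, 8985, 8161, 11292 and 8080 in mulberry rats 1 to 5, and 7957, 8377, 9103, 9765 and 8426 in control rats 1 to 5. Mulberry rat 4 was the highest liver and control rat 1 the lowest, and the groups overlapped. Its difference of 0.083 ± 0.10 (SE) was the most positive of the complex. Uqcrfs1, the Rieske iron-sulphur protein, had 11050, 9077, 9012, 11461 and 9619 in mulberry rats 1 to 5, and 8872, 9068, 13039, 12658 and 9537 in control rats 1 to 5. Mulberry rats 1 and 4 came next after control rats 3 and 4, and the difference was -0.069 ± 0.13 (SE). Uqcrh, the hinge protein that docks cytochrome c1, averaged 7215 ± 481 in mulberry livers and 7459 ± 480 in control livers (SD, n = 5 each).

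Complex IV, cytochrome c oxidase, has several subunits with tissue isoforms, and the isoforms known from other tissues were dim. Cox4i2, known from lung, was 7.28 to 40.9 in mulberry livers and 3.57 to 33.5 in control livers. Cox6a2, the heart and muscle form, was 6.05 to 48.2 in mulberry livers and 6.86 to 60.1 in control livers. The muscle forms Cox7a1 and Cox8b and the testis form Cox6b2 were also under the filter, as was Cox7b2, so 10 of 16 complex IV genes were tested. The highest of these 6 genes in any rat was Cox7a1, at 82.5 in mulberry rat 3 and 89.3 in control rat 1.

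Among the forms that passed the filter, Cox4i1, the widespread subunit 4, had 18490, 15814, 15972, 18191 and 16956 in mulberry rats 1 to 5, and 16574, 15256, 18859, 17956 and 16118 in control rats 1 to 5. The groups overlapped throughout, and the difference was 0.012 ± 0.080 (SE). Cox8a had 10614, 9614, 9509, 10137 and 9637 in mulberry rats 1 to 5, and 9710, 8598, 12860, 12197 and 9399 in control rats 1 to 5. Control rats 3 and 4 were above, and control rats 2 and 5 below, all mulberry rats, and the difference was -0.075 ± 0.11 (SE). Cox6a1 had a difference of -0.058 ± 0.12 and Cox6b1 one of -0.028 ± 0.10 (SE).

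Cox7a2l, which joins complexes III and IV in supercomplexes rather than serving in the enzyme itself, had 3290, 3770, 3166, 2888 and 3540 in mulberry rats 1 to 5, and 3588, 3235, 4130, 3518 and 3636 in control rats 1 to 5. Control rat 3 was the highest and mulberry rat 4 the lowest liver. Its difference of -0.12 ± 0.098 (SE) was the most negative of complex IV, with an unadjusted p of 0.24 in limma. Cox6c-ps1, a pseudogene of the subunit Cox6c whose probe set may share signal with its parent gene, averaged 164 ± 24.3 in mulberry livers and 151 ± 34.5 in control livers (SD, n = 5 each). Cox6c itself had a difference of 0.010 ± 0.090 (SE).

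Complex V, ATP synthase, had 5 genes with positive and 11 with negative differences. The F1 part makes ATP, and its catalytic beta subunit Atp5f1b had 17245, 14256, 14628, 15648 and 13733 in mulberry rats 1 to 5, and 14631, 13726, 16425, 15683 and 14529 in control rats 1 to 5. Mulberry rat 1 was the highest liver, and the difference was 0.0080 ± 0.082 (SE). The central stalk subunit Atp5f1c averaged 13703 ± 562 in mulberry livers and 14556 ± 1495 in control livers, with a difference of -0.082 ± 0.080 (SE). Atp5f1e, the epsilon subunit, averaged 10365 ± 1082 in mulberry livers and 10652 ± 1236 in control livers (SD, n = 5 each).

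Of the 10 stalk and membrane genes, 8 had negative differences, and the median was -0.034. It was 0.094 without control rats 3 and 4, and also above 0 without mulberry rat 3 (0.0052), mulberry rat 5 (0.0070), control rat 3 (0.031) or control rat 4 (0.016) alone. Atp5pd, a subunit of the peripheral stalk, had 11487, 10208, 9876, 11802 and 10263 in mulberry rats 1 to 5, and 10082, 9878, 13582, 12464 and 10004 in control rats 1 to 5. The highest livers were again control rats 3 and 4, and the other control rats lay at the low end of the mulberry range. Its difference was -0.053 ± 0.11, that of the membrane subunit Atp5mf -0.089 ± 0.088 and that of Atp5mpl -0.086 ± 0.088 (SE). Atp5mc3, 1 of the genes for the proton-carrying c subunit, had a difference of 0.019 ± 0.082 (SE), and the probe sets for Atp5mc1 and Atp5mc2 each carried a second symbol and were not counted.

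Atp5if1, the inhibitor that blocks ATP hydrolysis by the enzyme, had 939, 924, 776, 848 and 998 in mulberry rats 1 to 5, and 757, 944, 1266, 1253 and 868 in control rats 1 to 5. For this gene control rats 3 and 4 were the 2 highest livers and control rat 1 the lowest. The difference was -0.16 ± 0.15 (SE, unadjusted p = 0.32 in limma), and 0.067 without those 2 rats.

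Genes that work with the chain but lie outside the symbol rule were listed apart. They cover cytochromes c and c1, other routes to ubiquinone, ubiquinone synthesis, further assembly factors and regulators of mitochondrial biogenesis. Of 81 entries, 76 were measured and 74 tested, with 35 positive and 39 negative differences and a median of -0.0068. None passed an adjusted p of 0.05 in limma and 1 passed an unadjusted p of 0.05, where 1.74% of all probe sets did so. That count was 0 without mulberry rat 5 or without control rat 3, and between 0 and 3 over the alternatives. The gene was Coa7, an assembly factor of complex IV, with 315, 245, 277, 266 and 232 in mulberry rats 1 to 5, and 268, 381, 391, 386 and 302 in control rats 1 to 5. Control rats 2, 3 and 4 were above all mulberry rats, and control rats 1 and 5 lay inside the mulberry range. The difference was -0.34 ± 0.14 (SE, unadjusted p = 0.028, adjusted p = 0.9999 in limma).

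Ttc19, which acts on complex III, had 735, 904, 780, 805 and 860 in mulberry rats 1 to 5, and 834, 906, 999, 1052 and 996 in control rats 1 to 5, with a difference of -0.22 ± 0.10 (SE). Tmem70, an assembly factor of ATP synthase, had 65.4, 65.2, 173, 143 and 89.7 in mulberry rats 1 to 5, and 80.4, 62.1, 34.6, 82.0 and 54.2 in control rats 1 to 5. It was dim, the groups overlapped, and the difference was 0.60 ± 0.28 (SE). Coq7, a hydroxylase of ubiquinone synthesis, averaged 319 ± 24.7 in mulberry livers and 274 ± 30.0 in control livers (SD, n = 5 each).

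The 16 regulators tested had differences from -0.29 (Polg2, a subunit of the mitochondrial DNA polymerase) to 0.24 (Tfb1m, a mitochondrial rRNA methyltransferase), 8 above 0 and 8 below. Ppargc1a, a coactivator of mitochondrial biogenesis, averaged 168 ± 31.9 in mulberry livers and 162 ± 21.4 in control livers, with a difference of 0.043 ± 0.15 (SE). Tfam, which packs mitochondrial DNA and activates its transcription, averaged 1605 ± 100.1 in mulberry livers and 1659 ± 172 in control livers, with a difference of -0.043 ± 0.099 (SE). Cyc1, cytochrome c1 of complex III, followed the members over rats, with 7017, 7131, 6361, 7313 and 7161 in mulberry rats 1 to 5, and 6235, 6473, 9199, 8336 and 6626 in control rats 1 to 5. Again, control rats 3 and 4 were the 2 highest livers. The 74 partner genes as a group had levels of 0.044 in control rat 3 and 0.041 in control rat 4 as deposited, 0.082 and 0.064 after quantile normalization, and 0.12 in both after a median shift.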

How the data were processed

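Liver RNA of 10 rats, 5 mulberry and 5 control, was measured on 1 array each. The authors deposited 1 table of linear intensity values for 31099 probe sets, whose mean after trimming 2% was 500 on each array and whose smallest value was 1. The submitters' processing notes name MAS5 and affy, with no version. Precision is limited by the number of arrays. Levels were not compared between probe sets as RNA amounts.

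From these, log2(intensity + 16) was computed, which understates differences of dim probe sets. The 57 control probe sets were left out, as were dim ones, up to the 40th percentile of mean log2 (6.27, or an intensity of 61.1). Groups and rat numbers came from the sample titles. The groups were compared with limma 3.58.1 in R 4.3.3 (lmFit and eBayes with a variance trend, two-sided, Benjamini-Hochberg over all 18625 probe sets tested, threshold 0.05). The procedure was tested on simulated data with independent errors and with changes larger than any member difference. That test does not cover differences of the members' size or errors shared between genes. Python 3.11.15 with pandas 2.3.3, numpy 2.4.6 and matplotlib 3.10.9 made tables and plots.

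Symbols came from the platform annotation, and the 86 members' symbols equalled those of RefSeq (GRCr8). The members, the partner gene list and the marker lists were chosen with earlier results of these data known, so no list is independent evidence. Named were the members of each class with the smallest unadjusted p (2 or 3 a class), the extremes, all Sdh genes, genes picked by role, and isoform pairs. Ndufs1, Sdha and Cox5a among the genes that ran the other way, Cox6c, Ndufb3 and the 4 other assembly factors were described after their values were seen. So were Polg2, Tfb1m, Actn2, Cd68 and the other muscle and macrophage markers. Alternatives were quantile normalization, array weights, the replicate block, a median shift, pseudocounts of 1 and 64, the median over a gene's probe sets, no filter or one at the 60th percentile, a fit without the variance trend, a threshold of 0.1, and leaving out each rat in turn. Leaving out control rats 3 and 4 together, and rescaling the level per rat, were added after seeing the data.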

Additional observations from a re-analysis of the deposited data

Results flagged for a closer look

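The log2 values of the named genes and the class levels, per group, gave 90 sets of 5 rats. In 2 of these sets a rat lay far from the other 4. Chance alone gives about 1 in 20, and 2 of 90 is below that rate. The pseudogene Cox6c-ps1 was highest in mulberry rat 4, with an intensity of 206 against 160 in the next mulberry rat. The gap took up 0.754 of the range of the mulberry rats, above the limit of 0.71. The level of the complex I assembly factors was highest in mulberry rat 2, at 0.056 against -0.097 in the next mulberry rat, and the gap took up 0.854 of the range. This level rested on Ndufaf5, which lay 0.45 above its own log2 mean in mulberry rat 2. The other assembly factors lay between -0.11 and 0.037 there. The cause of the 2 high values was not tested.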

How the results depend on the processing

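No member and no partner gene passed an adjusted p of 0.05 in limma under any alternative, and the smallest adjusted p of a named gene was 0.898. At an unadjusted p under 0.05 there were 0 members as reported, 5 without control rats 3 and 4, and at most 1 in each other alternative run. The share of all probe sets in the fit without these rats is not given here, so the 5 cannot be set against it. Both rats were picked because most of these genes were high in them, which raises most differences by construction. For partner genes the count at an unadjusted p under 0.05 was 1 as reported and 0 to 3 over the alternatives. Signs were less stable, and 10 of 36 named genes kept theirs throughout. Leaving out control rats 3 and 4 moved the class medians to 0.10 for all 79 genes, 0.11 for complex I accessory subunits, -0.045 for its assembly factors, 0.16 for its core, 0.10 for complex II, 0.13 for complex III, 0.10 for complex IV, 0.075 for the F1 subunits and 0.094 for the stalk and membrane subunits of complex V. It turned the sign of 21 named genes, namely Atp5f1c (0.014), Atp5f1e (0.072), Atp5if1 (0.067), Atp5mf (0.029), Atp5pd (0.10), Cox6a1 (0.12), Cox6b1 (0.11), Cox8a (0.10), Ndufa2 (0.024), Ndufa4 (0.074), Ndufb4 (0.017), Ndufs1 (-0.11), Ndufs6 (0.029), Ndufv1 (0.0090), Sdhb (0.11), Sdhc (0.14), Sdhd (0.083), Uqcrfs1 (0.13), Uqcrh (0.0013), Cyc1 (0.12) and Tfam (0.047). Array weights turned Atp5pd (0.000486), Cox6a1 (0.0090), Cox6b1 (0.024), Sdhb (0.0015), Sdhc (0.052), Sdhd (0.00714) and Cyc1 (0.015), and the median shift Atp5f1b (-0.020), Atp5mc3 (-0.00842) and Cox4i1 (-0.015). Leaving out 1 rat at a time turned the sign of some, with these ranges: Atp5f1b -0.041 to 0.041, Atp5f1e -0.092 to 0.015, Atp5mc3 -0.024 to 0.073, Atp5pd -0.10 to 0.020, Cox4i1 -0.025 to 0.052, Cox6a1 -0.13 to 0.018, Cox6b1 -0.066 to 0.041, Cox8a -0.14 to 0.00040, Ndufa4 -0.11 to 0.012, Sdha -0.10 to 0.011, Sdhb -0.15 to 0.0064, Sdhc -0.073 to 0.066, Sdhd -0.065 to 0.041, Uqcrfs1 -0.13 to 0.0095, Cyc1 -0.12 to 0.024 and Ppargc1a -0.053 to 0.11. The median shift moved the level of the 79 genes to 0.12 in mulberry rat 2, -0.24 in mulberry rat 3 and -0.028 in mulberry rat 4, and left control rats 3 and 4 highest (0.30 and 0.26).

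The rats were treated as unpaired, and deviations of same-numbered rats correlated between -0.33 and 0.096. Such correlations cannot show whether the rats were paired by design. With the replicate block 0 members and 0 partner genes were called, and the block changed no call at that threshold. At an unadjusted p under 0.05 it left 0 partner genes, against 1 without the block.

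The 5 rats per group, and the wide spread among control rats, limit the precision. The 95% interval lay within 1.5-fold for 77 of 79 members, and 7 members were too dim to test. Single arrays of separate rats do not tell array effects from differences between animals. Transcript levels say nothing of the complexes' protein or activity.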

Other observations

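Several members had more than 1 probe set, and these did not always give the same sign. Of the 9 such genes, 7 had at least 2 probe sets past the filter, and the differences had the same sign in 3 of the 7. The second probe set of Ndufv3, an accessory subunit of complex I, had a mean of 347 ± 89.3 in mulberry livers and 298 ± 110 in control livers (SD, n = 5 each), with a difference of 0.23 ± 0.25 (SE). The brighter probe set of the same gene had a difference of -0.020 ± 0.11 (SE). The 2 probe sets of Sdhd both had control rat 3 as the highest liver, with 12157 on the brighter and 6081 on the dimmer probe set.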
